A study of Mus musculus with 16 samples.

Results

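The gene set described here is the chemokines and their receptors in mouse kidney. Members were taken by name: every protein-coding gene called Ccl, Cxcl, Cx3cl, Xcl, Ccr, Cxcr, Cx3cr, Xcr or Ackr with a number. This gave 56 of the 30277 genes in each table, and of the 17903 that are protein coding. They comprise 21 CC ligands, 14 ligands of the CXC, CX3C and XC families, 9 CC receptors, 8 CXC, CX3C and XC receptors and 4 atypical receptors.

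Chemokines are small secreted proteins that bind to G-protein-coupled receptors on leukocytes and guide them along gradients. Atypical receptors (Ackr genes) bind chemokines without G-protein signalling and remove or redistribute them. In injured kidney, tubular and endothelial cells can secrete ligands that draw in monocytes, neutrophils and T cells, while a few ligands, such as CXCL12, CX3CL1 and CXCL16, are also made by resting kidney cells.

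Kidneys came from mice of the 129S1/SvlmJ strain that carried the Klotho (Kl) mutation on a congenic background; Kl encodes a kidney protein that serves as co-receptor for the phosphate hormone FGF23. Kl/Kl homozygotes, which the series describes as having renal failure, were compared with controls of the same sex with healthy kidneys. There were 3 male controls of genotype +/Kl, 5 male Kl/Kl mice, 4 female controls of genotype +/+ and 4 female Kl/Kl mice, aged 44 to 54 days. Perfused, frozen kidneys gave 1 polyadenylated RNA library each. Because male controls were heterozygous and female controls wild type, sex and control genotype cannot be told apart in any comparison between the sexes. The labels do not state in words that each library is a separate animal, so p-values measure the spread between these libraries.

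Deposited values are TPM, a relative abundance per length of gene, in 1 table per sex. The length used is the whole genomic span of each gene, so that a gene with long introns has a low TPM for its read number. Library depth, estimated from the size of 1 read in the values, was 21.5 to 31.7 M reads. Kl itself was 4.14 to 15.1 TPM in male controls, 0.0235 to 0.265 in male Kl/Kl, 9.18 to 21.2 in female controls and 0.0268 to 0.518 in female Kl/Kl libraries, so every mutant lay below every control. Female Kl/Kl replicate 3, from the oldest mouse at 54 days, stood apart: the kidney genes Umod and Slc34a1 were at 1.68 and 0.343 TPM there, against at least 221.9 and 188.8 in the other 7 female libraries. Male control replicate 3 had the highest mitochondrial share, 54.3% of its summed TPM, which is not a share of reads. Differences of named members are therefore given with and without male control replicate 3 or female Kl/Kl replicate 3, as far as the member was measured without it. Female Kl/Kl replicate 2 had the highest summed level of the 5 blood markers, 1229.7 TPM, where female controls had 27.6 to 66.5 and Kl/Kl replicates 1 and 4 had 35.1 and 89.9.

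A member counted as measured when its mean reached 0.2 TPM in a group. By this rule 33 members were measured in at least 1 table and 23 in neither. Males had 20 measured members, also without control replicate 3. Females had 33, which became 23 without Kl/Kl replicate 3. Just under the limit in males lay Cxcl2 at 0.142 TPM and Ccr10 at 0.157, and just above it Ccl9 and Ccl17, both at 0.238. In females Cxcl9 at 0.136 and Ccl12 at 0.166 lay just under it, and Ccl5 and Ccl24, both at 0.219, just above. In males 4 measured members passed through the Kl/Kl group alone, and in females 15 did, or 5 without Kl/Kl replicate 3; these had to lie higher in Kl/Kl. Apart from female Kl/Kl replicate 3, 18 of the 56 members had fewer than 10 estimated reads in every library, among them Ccl3, Ccl4, Ccl20, Cxcl9, Ccr7 and Cxcr5, so that changes of those genes were not detectable at this depth.

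To compare levels between genes, estimated reads were divided by transcript length and by library depth (reads per kb of transcript per M reads). On this scale 7 members stood above the others in male control kidneys. Ccl28 was highest, at 39.7 in male controls, but 3.08 in female controls. Cxcl12, a ligand of CXCR4 that holds leukocytes and supports vessels, had 26.3 in male and 34.1 in female controls. Next came Cxcl16 with 16.8 and 17.8, and Cx3cl1 (fractalkine) with 16.0 and 19.2. Ackr3, which scavenges CXCL12, had 11.4 and 12.3, Ccl27a 10.9 and 11.4, and Ccl25 9.38 and 8.35. Receptors of leukocytes were far lower, for example Ccr2 at 0.626 and 0.708.

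**Figure D1:**
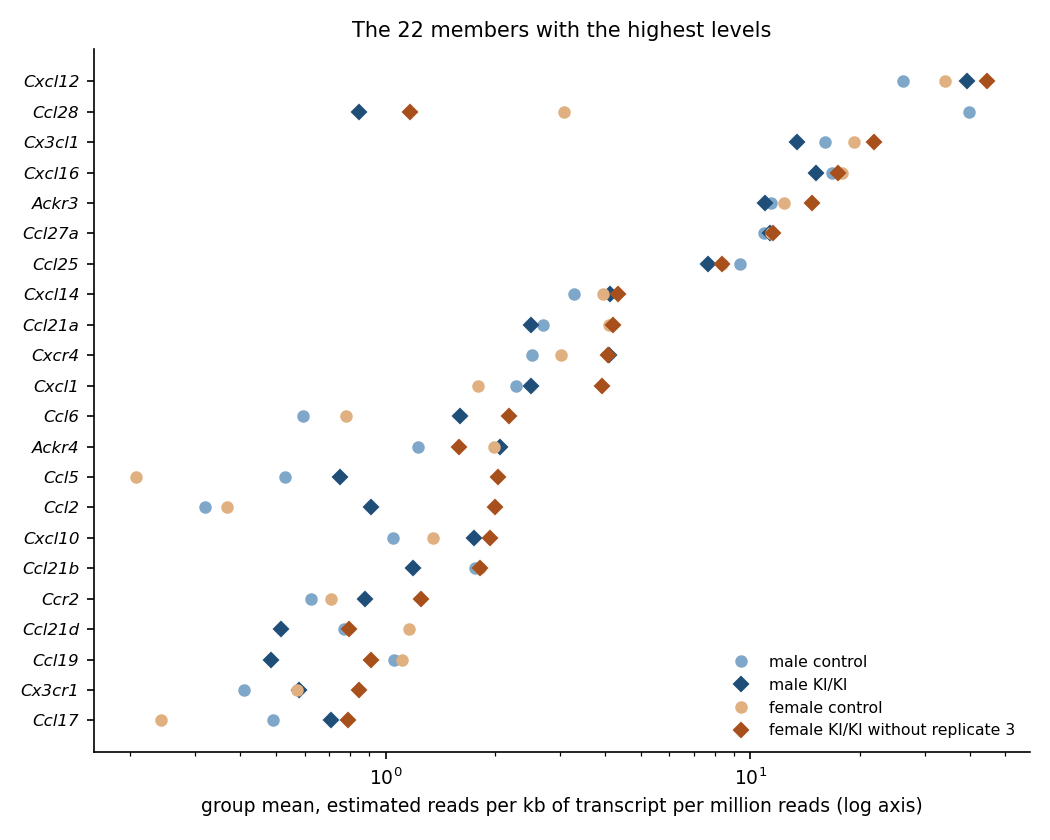
Group means of the 22 members with the highest levels, in estimated reads per kb of transcript per M reads on a log axis; circles are controls, diamonds Kl/Kl, blue males and brown females, with female Kl/Kl replicate 3 left out. Ccl28 spreads from 0.844 in male Kl/Kl to 39.7 in male controls, while the points of Cxcl16 lie between 15.1 and 17.8.

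Ccl28 encodes a ligand of CCR10 and CCR3 that is known from mucosal epithelia, where it draws in plasma cells that secrete IgA. The gene (ENSMUSG00000074715) lies on chromosome 13, plus strand, from 120085355 to 120115896 in mm39. The 250 bases before its annotated start, from the RefSeq promoter table of build GRCm38.p6 (chr13:119623569-119623818, plus strand), are shown because it was the 1 member whose change passed the threshold.
Ccl28: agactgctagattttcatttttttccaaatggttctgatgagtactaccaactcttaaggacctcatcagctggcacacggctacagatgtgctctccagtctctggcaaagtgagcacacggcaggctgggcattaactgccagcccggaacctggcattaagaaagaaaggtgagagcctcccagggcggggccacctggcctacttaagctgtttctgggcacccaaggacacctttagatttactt
The androgen receptor half-site AGAACA and the AP-1 letters TGAGTCA were not found on either strand of this stretch. AGAACA occurs in 16.08% of the 32851 upstream stretches of 250 bases in the table, and TGAGTCA in 4.463%. Most stretches thus lack both, and their absence describes the sequence and is not evidence on what regulates Ccl28.

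Ccl28 fell in male Kl/Kl kidneys. Male controls had 3.74, 7.76 and 2.95 TPM, an estimated 2981, 6541 and 3226 reads. Male Kl/Kl libraries had 0.0981, 0.103, 0.0977, 0.103 and 0.136 TPM, an estimated 68.0 to 126 reads. All 5 mutants lay far below all 3 controls, and their spread was small beside the gap. Group means were 4.81 ± 2.58 (SD, n = 3) and 0.107 ± 0.0159 TPM (SD, n = 5), so that mutants held 2.23% of the control mean. On the log2(TPM + 0.1) scale the difference was -4.45 (SE 0.28; limma with Benjamini-Hochberg adjustment, adjusted p = 3.95e-05). Without male control replicate 3 it was -4.73 (adjusted p = 0.000167).

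Among females the same direction was seen but did not pass the test. Female controls had 0.724, 0.105, 0.627 and 0.183 TPM, and female Kl/Kl libraries 0.163, 0.0661, 0.0148 and 0.237, the value 0.0148 being that of replicate 3. Controls 1 and 3 were high, whereas controls 2 and 4 lay inside the range of the mutants. The difference was -1.09 (SE 0.56, limma adjusted p = 0.746), and -0.82 without Kl/Kl replicate 3 (adjusted p = 0.472). Per transcript length and library depth, the mean was 3.08 in female controls, 39.7 in male controls, 0.844 in male Kl/Kl and 1.17 in female Kl/Kl without replicate 3, so that female controls lay nearer to the mutants of both sexes than to male controls. Males and females were not tested against each other, since their tables were scaled separately.

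The Kl/Kl change of Ccl28 was smaller in females by 3.36 log2 units (95% interval 1.98 to 4.73, limma over all 4 groups, adjusted p = 0.0308). Without both libraries that stood apart this difference was 3.91 (adjusted p = 0.00682). Over 26 alternatives its sign held while its adjusted p ran from 0.000461 to 0.241 and passed the threshold in 10. It was lost on leaving out any 1 of 12 of the 16 libraries, the exceptions being male control 3, female controls 1 and 3 and female Kl/Kl 3. Ccl28 was also the 1 of 33 members called in this comparison, in which 0.468% of 16450 genes were called, and of 23 without both libraries, where 2.91% were.

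Some other genes also differed between the male groups. Kap, the androgen-regulated protein of proximal tubule, had 3451 to 4081 TPM in male controls, 76.3 to 368.6 in male Kl/Kl, 356.3 to 737.6 in female controls and 114.9 to 271.3 in female Kl/Kl without replicate 3. Among the female controls, the libraries with more Ccl28, replicates 1 and 3, also had more Kap, at 680.7 and 737.6 TPM. Among the male controls the order was the reverse. There Ccl28 was highest in replicate 2, where Kap was lowest at 3451 TPM. It was lowest in replicate 3, where Kap was highest at 4081 TPM. Of the 8 B and plasma cell markers 4 were tested in males, and 2 fell. Jchain, which joins IgA dimers, was 2.62, 2.56 and 1.80 TPM in male controls and 0.0839 to 0.6996 in male Kl/Kl (log2 difference -2.81, limma adjusted p = 0.0053, and 0.0184 without control replicate 3). Igkc was 84.1, 84.7 and 85.5 against 3.61 to 26.6 TPM (log2 difference -3.13, adjusted p = 0.0253, and 0.0604 without control replicate 3). The summed level of all 8 B and plasma cell markers was 87.5 to 88.4 TPM in male controls, 4.87 to 28.2 in male Kl/Kl, 6.16 to 34.7 in female controls and 10.4 to 13.6 in female Kl/Kl without replicate 3. Mzb1, a chaperone of antibody-secreting cells, did not pass and had the opposite sign, with 0.524, 0.558 and 0.772 TPM in male controls and 1.56, 0.879, 0.805, 1.93 and 0.658 in male Kl/Kl (log2 difference 0.73, adjusted p = 0.185; 0.88 and 0.173 without control replicate 3). Of the B cell genes Cd79b differed by 0.12 (adjusted p = 0.729), and Cd79a was near 0, at 0.0327 to 0.0579 TPM in the male controls. Of all genes 2.37% were called lower in this comparison, and 5.55% without control replicate 3, where Jchain alone of the 4 was. In the female controls Igkc was highest in replicate 2, at 33.0 TPM, where Ccl28 was lowest. The part of these cells and of Kap-expressing tubule in the Ccl28 difference was not tested, and in whole kidney fewer cells of a type and less RNA per cell cannot be told apart. The CCL28 receptor Ccr10 was below 0.2 TPM in every male library, with 6.00 to 13.0 estimated reads. In females it was 0.356, 0.470, 0.375 and 0.112 TPM in controls and 0.166, 0.121, 0.0116 and 0.133 in Kl/Kl (log2 difference -1.02, limma adjusted p = 0.746; -0.75 and 0.331 without Kl/Kl replicate 3).

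**Figure D2:**
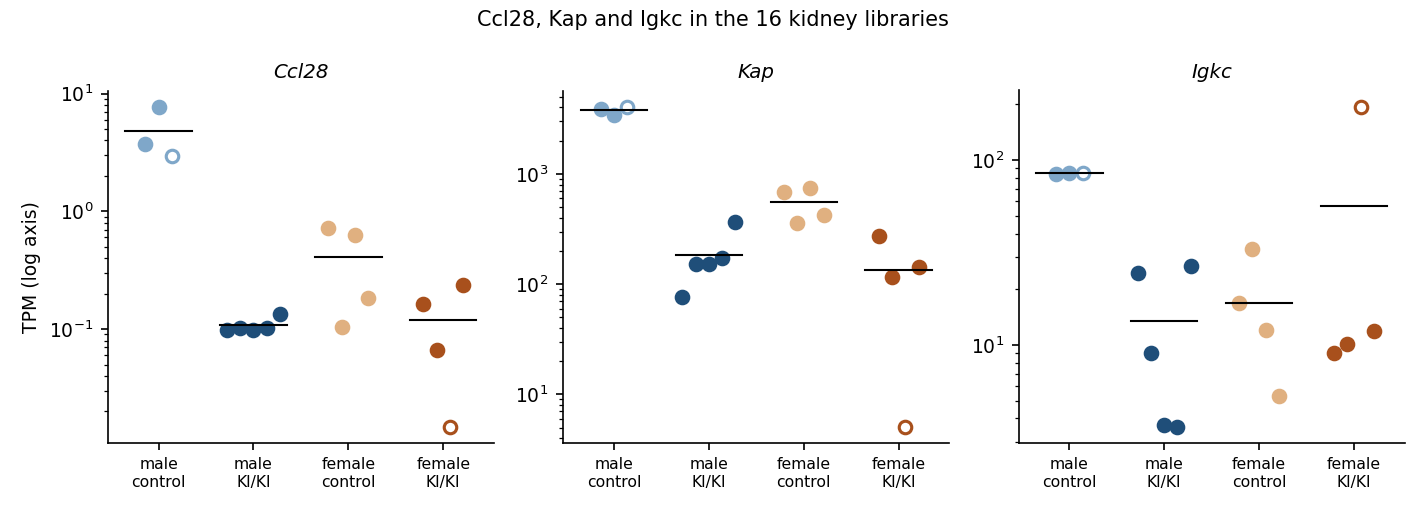
Ccl28, Kap and Igkc in TPM on log axes, 1 point per library in the 4 groups, with black lines at group means; open points are male control replicate 3 and female Kl/Kl replicate 3. In males every Kl/Kl point of all 3 genes lies below every control point, and female points of Ccl28 do not exceed 0.724 TPM.

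Across the whole set, Ccl28 was the 1 of 20 members tested that was called in males, where 6.2% of 15537 genes were called. It was again the 1 of 20 without control replicate 3, with 8.66% of genes called. The median log2 difference of the tested members was 0.21, beside 0.28 over all genes tested, and 0.23 beside 0.04 without control replicate 3. Of these members 4, Ccl2, Ccl6, Ccl9 and Ccl17, passed the filter through the Kl/Kl group alone and had to lie higher. Without control replicate 3 these were 3, the same but Ccl6. Through the controls alone passed 2 in both cases. Groups did not overlap for 1 member that was higher in Kl/Kl, Ccl6, where 19.6% of all genes did so, and for 1 that was lower, Ccl28, where 4.43% did. Without control replicate 3 these were Ccl6 (20.9% of all genes) and Ccl28 and Ccl25 (19.5%).

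In females no member was called by limma with all libraries, among 33 tested, with 4 at an unadjusted p under 0.05 and 0% of 15752 genes called. Without Kl/Kl replicate 3, 0 of 23 members were called, 5 had an unadjusted p under 0.05, and 0.0129% of 15509 genes were called; limma-voom on estimated reads called 0 members as well in both cases. Median log2 differences of the members were 0.84 with all libraries, beside -0.21 over all genes, and 0.26 beside 0.08 without replicate 3. Of these members 15, or 5 without replicate 3, passed the filter through the Kl/Kl group alone and had to lie higher. Through the controls alone passed 2 in both cases. The medians therefore do not show a rise of the set. Groups did not overlap for Cxcl2 and Cxcl17, both higher in Kl/Kl (3.75% of all genes), and for 0 members that were lower (3.24%). Without replicate 3 groups did not overlap for Cxcl2 and Cxcl10, both higher (10.8% of all genes), and again for 0 that were lower (3.6%). Cxcl2 in both cases, and Cxcl17 with all libraries, passed the filter through the Kl/Kl group alone and had to lie higher.

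**Figure D3:**
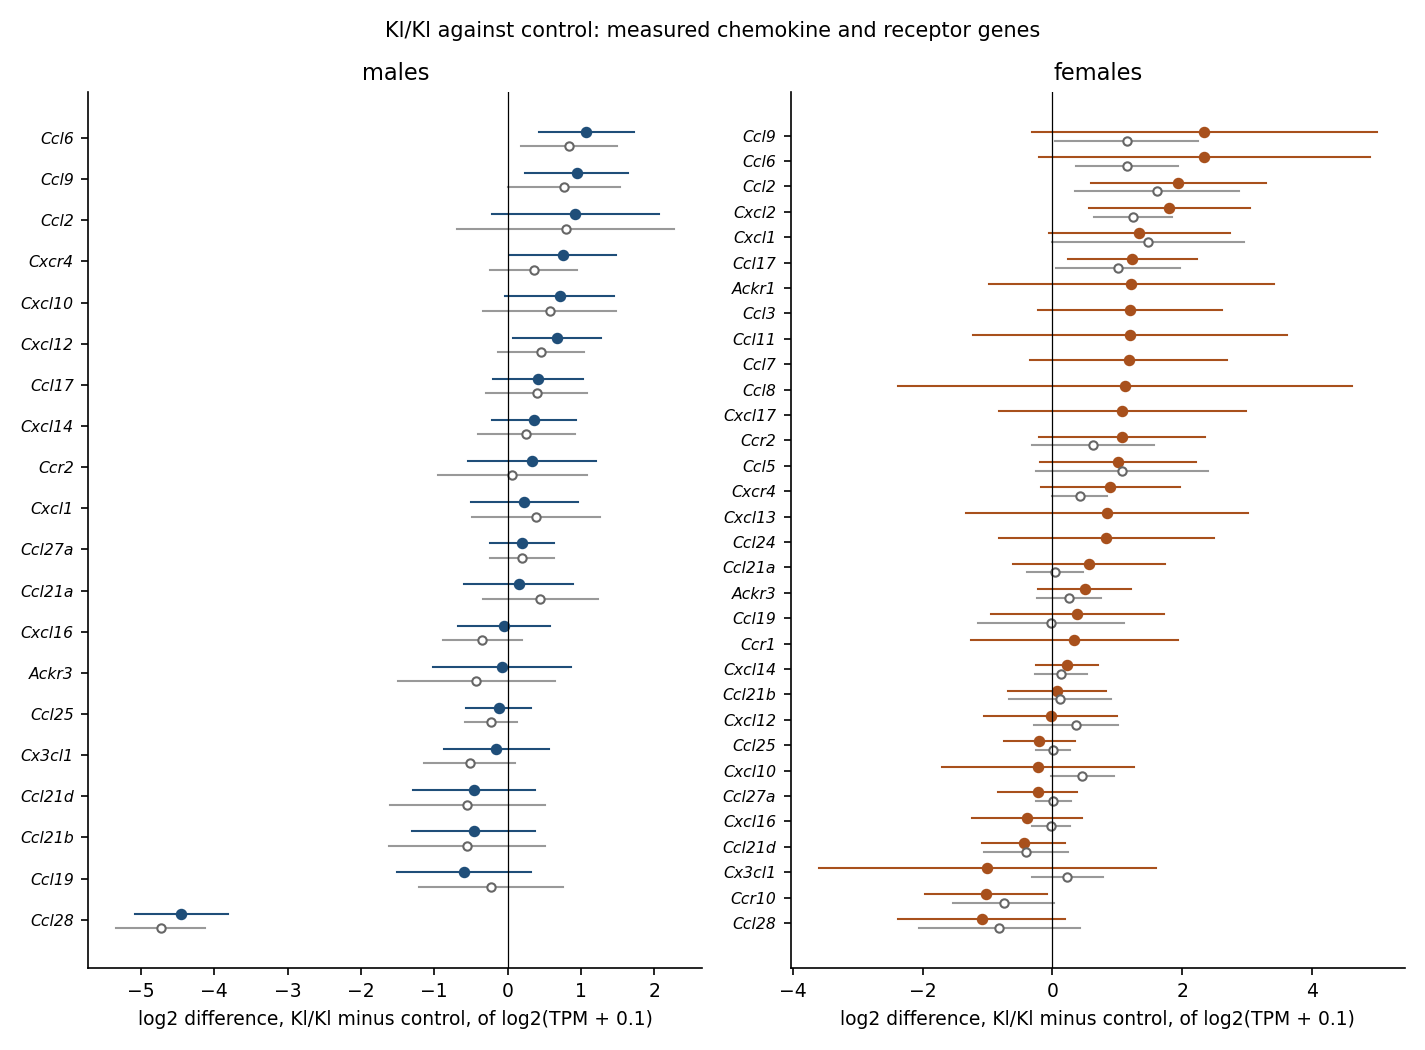
Difference of Kl/Kl minus control in log2(TPM + 0.1) with 95% confidence intervals for the measured members in males (left) and females (right); filled points use all libraries, open grey points leave out male control replicate 3 or female Kl/Kl replicate 3. Male Ccl28 stands at -4.45, the other male points lie between -0.59 and 1.07, and several wide female intervals have no open partner because the member was measured through replicate 3 alone.

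Ccl6 and Ccl9 encode ligands of CCR1 that macrophages and other myeloid cells make. With all male libraries both passed the filter through the Kl/Kl group alone and had to lie higher there. For Ccl9 this also held without control replicate 3 and in females. Ccl6 was 0.243, 0.167 and 0.0857 TPM in male controls and 0.389, 0.746, 0.462, 0.327 and 0.360 in male Kl/Kl. Every mutant was above every control, as was the case for 19.6% of all genes tested in males. The difference of the group means was 1.07 in log2 (SE 0.29), but the limma adjusted p was 0.0568. Without control replicate 3 the difference was 0.83 (adjusted p = 0.0992). Ccl9 had 0.147, 0.0507 and 0.0341 TPM against 0.131, 0.355, 0.184, 0.221 and 0.299, with 1 mutant inside the control range (0.94, adjusted p = 0.0965; 0.77 and 0.165 without control replicate 3). In females without Kl/Kl replicate 3, Ccl6 was 0.344, 0.672 and 0.951 TPM in Kl/Kl beside 0.377, 0.243, 0.170 and 0.142 in controls (1.15, adjusted p = 0.188; 2.34 and 0.746 with replicate 3). Ccl9 was 0.0769, 0.414 and 0.717 beside 0.0762 to 0.123 TPM (1.14, adjusted p = 0.304; 2.34 and 0.746 with replicate 3). For both genes female Kl/Kl replicate 1 resembled the controls and replicates 2 and 4 were higher. The blood marker sums given above were also higher in replicates 2 and 4 than in the controls. Replicate 2 was far above all other libraries in blood markers, but had less Ccl6 and Ccl9 than replicate 4. Macrophage and monocyte markers summed to 16.3, 26.4 and 50.8 TPM in replicates 1, 2 and 4. The part of blood or of macrophages in these values was not tested. Their receptor was scarcer: Ccr1 had 0.0340 to 0.0992 TPM in male controls and 0.0479 to 0.126 in male Kl/Kl. Ccl5, a T cell and macrophage ligand, was highest in male Kl/Kl replicate 5 at 0.264 TPM and female Kl/Kl replicate 4 at 0.633, with all other libraries at or below 0.119.

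Ccl2 is the main ligand that calls CCR2-bearing monocytes out of blood. In both sexes and in every fit given here, Ccl2 passed the filter through the Kl/Kl group alone and had to lie higher there. In male controls it was 0.244, 0.0769 and 0.0888 TPM, and in male Kl/Kl 0.0702, 0.947, 0.270, 0.278 and 0.471. Mutant replicate 1 was as low as the controls and the other 4 were above them (0.92, SE 0.51, limma adjusted p = 0.262; 0.79 and 0.427 without control replicate 3). In females the controls had 0.154, 0.197, 0.180 and 0.145 TPM and Kl/Kl 0.180, 1.20, 1.92 and 1.42. Here too 1 mutant, replicate 1, lay within the control range, and the other 3 had more than 5 times the highest control value. The difference between the female groups was 1.94 (SE 0.58, adjusted p = 0.746), or 1.61 without replicate 3 (SE 0.54, adjusted p = 0.236). The receptor Ccr2 overlapped between groups, with 0.379, 0.376 and 0.172 TPM in male controls and 0.243, 0.460, 0.213, 0.397 and 0.944 in male Kl/Kl (0.34, adjusted p = 0.581). Without control replicate 3 that difference was 0.07 (adjusted p = 0.931). Female Ccr2 was 0.667, 0.249, 0.272 and 0.327 in controls and 0.349, 0.504, 2.35 and 1.17 in Kl/Kl (1.08, adjusted p = 0.746; 0.62 and 0.464 without replicate 3). The other CCR2 ligands, Ccl7, Ccl8 and Ccl12, stayed at or below 0.299 TPM outside female Kl/Kl replicate 3.

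Markers of macrophages, which make and follow these ligands, were higher in male Kl/Kl as a sum. The summed level of the 11 macrophage and monocyte markers was 8.80 to 15.5 TPM in male controls and 18.3 to 31.3 in male Kl/Kl, and 13.7 to 23.1 against 16.3 to 50.8 in females without Kl/Kl replicate 3, where the groups overlapped. Male Kl/Kl replicate 1, with the lowest Ccl2 of any male library, had a sum of 25.5 TPM, above every male control. Of 8 such markers tested in males, 3 rose, where 3.84% of all genes were called higher. These were Lyz2 (log2 difference 1.77, limma adjusted p = 0.0049, and 0.0114 without control replicate 3), Cd14 (1.85, adjusted p = 0.00695, and 0.0217) and Cd68 (1.20, adjusted p = 0.0353, and 0.0644). In males 0 fell, and in females 0 passed. Adgre1, the gene of F4/80, had 0.0067 to 0.0657 TPM in all libraries but female Kl/Kl replicate 3, below the limit for the main test. Its reads were not few, and its male groups overlapped. Male controls had an estimated 86.0, 89.0 and 30.0 reads, and male Kl/Kl 47.0, 104, 53.0, 45.0 and 144. T and NK cell markers summed to 0.264 to 0.579 TPM in male controls and 0.194 to 0.796 in male Kl/Kl. Dendritic cell markers summed to 0.279 to 0.387 and 0.428 to 0.876 TPM in the same groups. The part of these cells in the chemokine differences was not tested.

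Cxcl1 and Cxcl2 call neutrophils through CXCR2. They lie on chromosome 5 near Cxcl3, with Cxcl15 between Cxcl3 and Cxcl1. Upstream bases of Cxcl1, Cxcl2 and Cxcl3 are shown because a run of 11 letters, GGGAATTTCCC, printed in capitals, is shared by all 3 close to the start. It was found as the longest run the 3 stretches share, and it holds the letters of a classical NF-kB site. On either strand the run occurs in 14 of 32851 upstream stretches of 250 bases (0.0426%), and among the 43 members matched by symbol in these 3 alone. The stretches are the 120 bases before each start, plus strand, RefSeq promoter table of GRCm38.p6: chr5:90891125-90891244 for Cxcl1, chr5:90903779-90903898 for Cxcl2 and chr5:90785981-90786100 for Cxcl3.
Cxcl1: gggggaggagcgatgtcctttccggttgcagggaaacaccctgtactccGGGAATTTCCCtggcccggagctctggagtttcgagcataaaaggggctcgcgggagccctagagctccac
Cxcl2: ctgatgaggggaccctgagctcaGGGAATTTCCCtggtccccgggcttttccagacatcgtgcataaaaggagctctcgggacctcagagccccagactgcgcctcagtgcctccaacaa
Cxcl3: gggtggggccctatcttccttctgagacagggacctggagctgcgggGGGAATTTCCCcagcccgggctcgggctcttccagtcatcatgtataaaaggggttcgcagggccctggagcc
The run begins 71, 97 and 73 bases before the start in Cxcl1, Cxcl2 and Cxcl3. Such a match describes the sequence and is not evidence that a factor binds there.

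Cxcl2 was low throughout but higher in Kl/Kl. In male controls it was 0.0185 and 0.0525 TPM with no read in replicate 3, and in male Kl/Kl 0.0853, 0.254, 0.0820, 0.148 and 0.143, which kept it below the limit for the main test in males. Female controls had 0.0176, 0.0180, 0.0406 and 0.0377 TPM, an estimated 1.00 to 2.53 reads. Female Kl/Kl libraries had 0.131, 0.262, 1.31 and 0.235 TPM, with 8.00 to 12.0 reads apart from replicate 3. Groups did not overlap in either sex, with few reads behind each value. In males 19.6% of the genes tested were higher without overlap, and Cxcl2 was not among those tested. In females the share was 3.75%, or 10.8% without Kl/Kl replicate 3. There Cxcl2 passed the filter through the Kl/Kl group alone and had to lie higher. The female difference was 1.80 (SE 0.53, limma adjusted p = 0.746), and 1.25 without Kl/Kl replicate 3 (SE 0.26, adjusted p = 0.131), which was the lowest adjusted p of any member in females.

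Cxcl1 varied more within groups. Male controls had 0.858, 0.946 and 1.29 TPM and male Kl/Kl 1.15, 2.59, 0.922, 0.930 and 0.982, which overlapped (0.23, limma adjusted p = 0.653; 0.39 and 0.511 without control replicate 3). In females, control replicate 1 at 2.73 TPM stood above the other controls at 0.555, 0.381 and 0.333, and the mutants had 1.98, 1.55, 1.40 and 2.94. Cxcl1 thus differed by 1.34 with all female libraries (SE 0.60, adjusted p = 0.746), and by 1.47 without Kl/Kl replicate 3 (adjusted p = 0.317). Cxcl3 had no more than 0.0300 TPM outside female Kl/Kl replicate 3, and Cxcl5 no more than 0.0717. The receptor Cxcr2 reached 0.131 TPM in male Kl/Kl replicate 1, the library with the highest neutrophil marker sum, 6.54 TPM. Those 6 markers summed to 0.0759 to 0.257 TPM in male controls and 0.819 to 6.54 in male Kl/Kl, and S100a8 was the 1 of 3 tested that rose (log2 difference 2.87, limma adjusted p = 0.0195, and 0.0518 without control replicate 3). In females the sums were 0.0334 to 1.65 and 0.395 to 1.24 TPM without Kl/Kl replicate 3, and 0 passed. Whether these cells contributed to the values of Cxcr2, Cxcl1 or Cxcl2 was not tested.

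**Figure D4:**
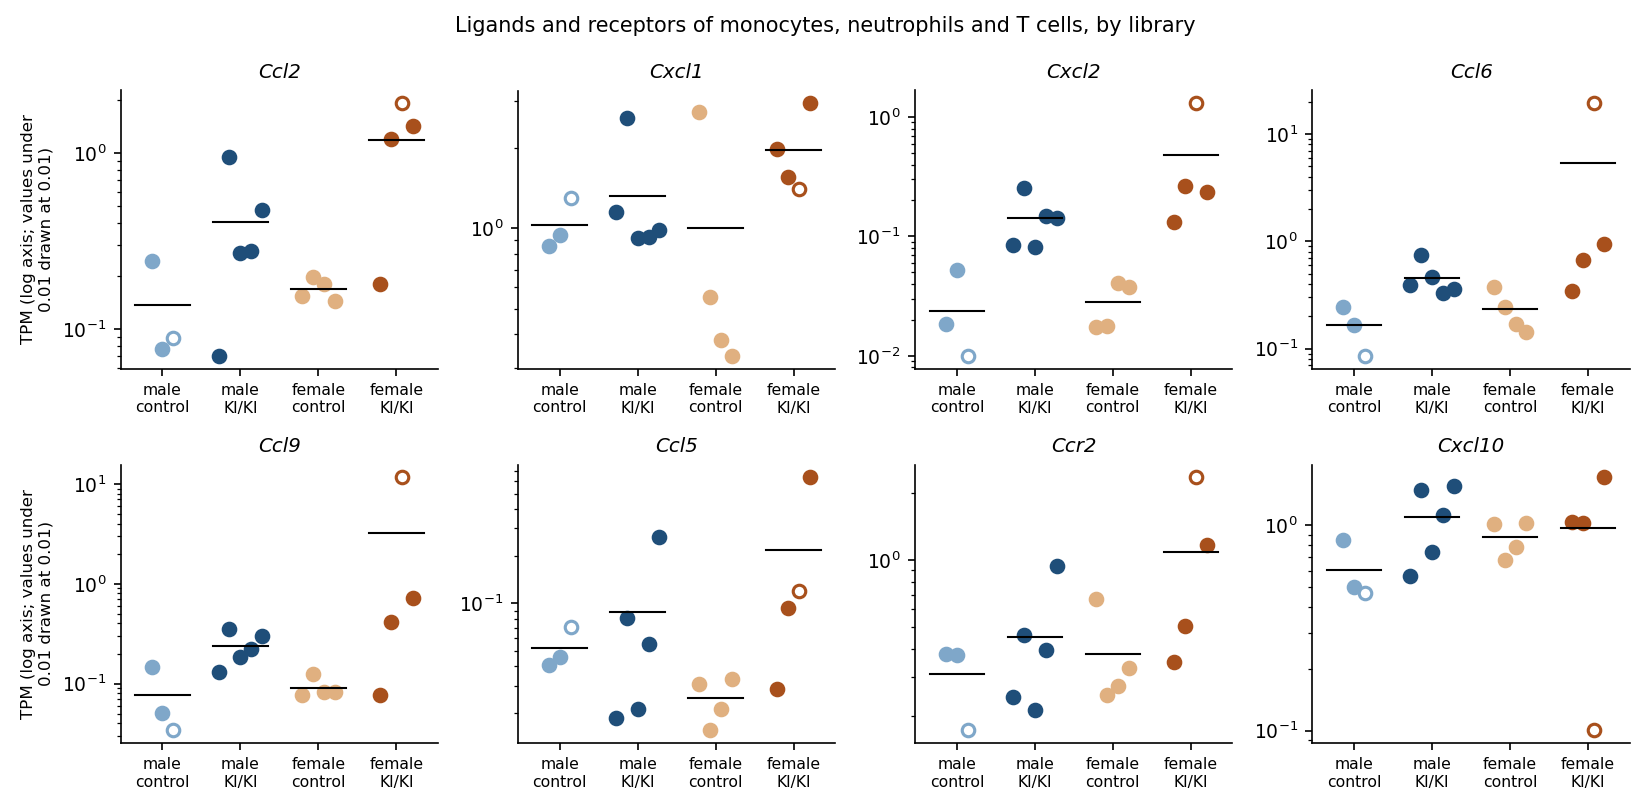
TPM on log axes of 8 ligands and receptors of monocytes, neutrophils and T cells, 1 point per library, black lines at group means, open points for male control replicate 3 and female Kl/Kl replicate 3; values under 0.01 TPM are drawn at 0.01. Ccl6 and Cxcl2 separate the male groups, Cxcl2 separates the female groups, and Kl/Kl replicate 1 of each sex lies low for Ccl2. Of all genes tested, 19.6% separate the male groups with Kl/Kl higher and 3.75% the female groups. Cxcl2 was not tested in males.

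Cxcl12 had the highest level among the CXC ligands in every group. Cxcl12 was 11.5, 14.0 and 8.07 TPM in male controls and 21.0, 24.3, 14.8, 16.7 and 12.7 in male Kl/Kl. All but 1 mutant were above all controls. The difference of the group means was 0.67 in log2 (SE 0.27, limma adjusted p = 0.147), or 0.45 without control replicate 3 (adjusted p = 0.264). Female Cxcl12 was 21.7, 15.1, 11.2 and 16.4 in controls and 16.1, 30.0 and 17.0 in Kl/Kl apart from replicate 3, which overlapped (0.36, adjusted p = 0.532; -0.03 and 0.978 with it). Cxcr4, the signalling receptor, had 1.35, 1.47 and 0.558 TPM in male controls and 2.65, 2.10, 1.83, 1.59 and 1.24 in male Kl/Kl (0.75, adjusted p = 0.170; 0.35 and 0.378 without control replicate 3). Ackr3 overlapped widely in males, with 3.54, 3.11 and 1.54 TPM in controls and 1.15 to 4.60 in Kl/Kl (-0.08, adjusted p = 0.917; -0.43 and 0.554 without control replicate 3).

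The membrane-bound ligands Cx3cl1 and Cxcl16, which attract CX3CR1-bearing macrophages and CXCR6-bearing T cells, did not pass the test in either sex. Cx3cl1 was 6.31, 6.07 and 2.85 TPM in male controls and 3.13, 6.49, 3.59, 3.98 and 5.00 in male Kl/Kl (-0.15, 95% interval -0.87 to 0.56). Without control replicate 3 that difference was -0.52 (95% interval -1.13 to 0.10, limma adjusted p = 0.228). In females it was 10.2, 5.51, 5.62 and 5.04 in controls and 7.25, 8.32 and 6.81 in Kl/Kl apart from replicate 3, where it was 0.144; the female difference was 0.23 without replicate 3 and -1.01 with it (adjusted p = 0.641 and 0.746). Cxcl16 was 8.27, 9.34 and 4.69 TPM in male controls and 4.95 to 8.52 in male Kl/Kl (-0.05, 95% interval -0.68 to 0.58; -0.35 without control replicate 3). Female Cxcl16 was 7.26 to 10.4 and 7.88 to 8.83 TPM, again without replicate 3 (-0.02, 95% interval -0.31 to 0.26; -0.39 with it). Their receptors were below the limit in both sexes: Cx3cr1, whose annotated span is long, had 28.0 to 216 estimated reads in males, with the highest number in Kl/Kl replicate 5, and Cxcr6 had at most 0.187 TPM in any library.

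Interferon induces the CXCR3 ligands Cxcl9, Cxcl10 and Cxcl11. Cxcl11 is outside the set, but it was tested with all male libraries, where the median log2 difference of Cxcl10 and Cxcl11 was 0.0028. Of the members Cxcl9 and Cxcl10, Cxcl10 alone was measured. It was 0.850, 0.498 and 0.470 TPM in male controls and 0.568, 1.49, 0.738, 1.12 and 1.55 in male Kl/Kl (0.71, SE 0.33, limma adjusted p = 0.198; 0.58 and 0.351 without control replicate 3). In females it was 1.02, 0.676, 0.784 and 1.02 in controls and 1.04, 1.03, 0.101 and 1.71 in Kl/Kl. Without Kl/Kl replicate 3, at 0.101, the female groups separated by a narrow margin (0.46, adjusted p = 0.336; -0.22 and 0.859 with it). Cxcl9 stayed at or below 0.0542 TPM outside that library, and the receptor Cxcr3 at or below 0.223.

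The other ligands of lymphoid organs and of epithelial surfaces did not pass the test in either sex. Ccl27a, a skin ligand of CCR10, was 1.82, 1.73 and 1.78 TPM in male controls and 1.55 to 2.57 in male Kl/Kl, and its female difference without replicate 3 was 0.01 (95% interval -0.26 to 0.28; -0.23 with it). Ccl25, a gut and thymus ligand of CCR9, was 0.306, 0.292 and 0.221 TPM against 0.209 to 0.260 in males, with a female difference of 0.01 without replicate 3 (95% interval -0.26 to 0.27; -0.20 with it). Ccl21a, a ligand of CCR7, differed by 0.15 in males (95% interval -0.60 to 0.89; -0.11 under median-of-ratios scaling; 0.45 without control replicate 3) and 0.04 in females without replicate 3 (0.56 with it). Reads of Ccl21a, Ccl21b and Ccl21d cannot be assigned with certainty because these genes are near-identical copies. In females Ccl17 passed the filter through the Kl/Kl group alone and had to lie higher there. Ccl17, a ligand of CCR4, was 0.138, 0.0938 and 0.107 TPM with no read in replicate 4 in female controls, and 0.107, 0.342 and 0.384 in Kl/Kl without replicate 3 (1.01, limma adjusted p = 0.297; 1.23 and 0.746 with it). Cxcl14, which many epithelia make, was 0.610 to 0.867 TPM in male controls and 0.748 to 1.65 in male Kl/Kl (0.36, adjusted p = 0.371; 0.26 and 0.563 without control replicate 3). In all, 17 of the 56 members overlap another annotated gene, Cxcl16, Cxcl10, Ccl25, Ccl27a and Ccl6 among them, and use of strand in counting is not given in the sources used here.

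Estimated whole reads, tested with limma-voom as an alternative, let in members with long spans and called more of them. In males 7 of 29 members passed, beside 18.6% of all genes: Ccl28 fell, and Ccl6, Ccl9, Ccr6, Cxcr2 and Ackr2 were among those that rose. Without control replicate 3, 2 of 29 passed, Ccl28 and Ackr2, beside 15.5% of all genes. Ackr2, which degrades inflammatory CC ligands, had an estimated 7.00, 4.00 and 9.00 reads in male controls and 33.0, 19.0, 14.0, 24.0 and 19.0 in male Kl/Kl (log2 difference 1.67, adjusted p = 0.0375). Ccr6, the receptor for CCL20, had 4.00, 2.00 and 0 reads beside 6.00 to 23.0. The calls of Ccl6, Ccl9, Ccr6, Cxcr2 and Ackr2 rest on at most 111 estimated reads in any male library, and those of Ccl6, Ccl9, Ccr6 and Cxcr2 were lost without control replicate 3.

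Genes outside the set but of the same pathway were followed in 4 lists. The list for induction of chemokines held inducers and also brakes on NF-kB such as Tnfaip3 and Nfkbia, and 12 of 20 were tested in males. Of these, 3 rose and 0 fell, with and without control replicate 3, where 3.84% and 3.11% of all genes were called higher. These were Tnfaip3, a brake on NF-kB that NF-kB itself induces (0.325 ± 0.149, SD, n = 3, against 1.10 ± 0.291 TPM, SD, n = 5; limma adjusted p = 0.0141), the receptor Tlr2 (0.493 against 1.45 TPM, adjusted p = 0.0166) and Nfkbiz (0.328 against 0.648 TPM, adjusted p = 0.0328). Nfkbia, the NF-kB inhibitor, had 10.9 and 23.6 TPM (adjusted p = 0.0898). Of the receptor signalling genes 0 of 8 passed, and of the adhesion molecules 0 of 5, where Icam1 had 1.02 against 1.77 TPM (adjusted p = 0.0749). Of the chemokine-like genes outside the name rule, 3 were tested in males. Mif, a cytokine that binds CXCR4 and CXCR2, rose from 90.2 ± 7.34 (SD, n = 3) to 176 ± 31.1 TPM (SD, n = 5; adjusted p = 0.0212). Rarres2 (chemerin) fell from 16.4 to 6.88 TPM (adjusted p = 0.0499, and 0.0668 without control replicate 3). In females 0 genes of these 4 lists passed, with or without Kl/Kl replicate 3.

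Female Kl/Kl replicate 3 held a chemokine profile of its own. Of the 39 members that reached 0.2 TPM in some female library, 26 were above every other female library and 8 below. Of all 17982 genes that did, 18.0% were above and 67.1% below. Ccl11 (eotaxin) reached 2.93 TPM there, 61.1 times the highest of the other 7, and Cxcl17, an airway ligand, 1.31 TPM or 48.7 times. Ackr1, the atypical receptor of venules and red cells, was 2.27 TPM (41.8 times), the CCR2 ligand Ccl8 10.7 TPM (35.9 times), Ccl6 19.4 TPM (20.3 times), Cxcl13, the B cell ligand, 1.70 TPM (18.9 times) and Ccl9 11.7 TPM (16.3 times). Cx3cl1, Ccl28, Cxcl10, Cxcl12, Cxcl16, Ccl25 and Ccl27a were all below the other female libraries.

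**Figure D5:**
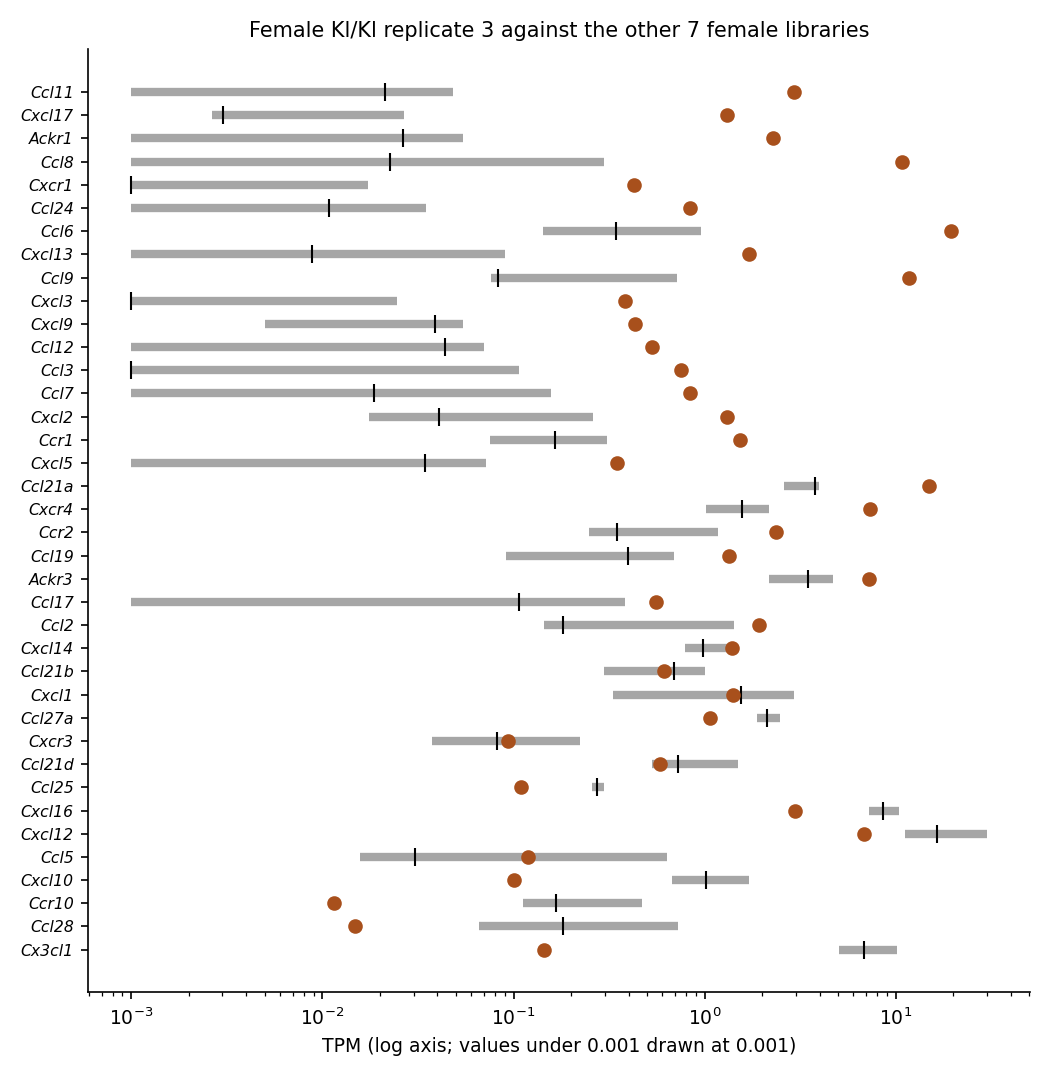
TPM on a log axis of 38 members that reached 0.2 TPM in some female library; brown points are female Kl/Kl replicate 3, grey bars the range of the other 7 female libraries and ticks their median, with values under 0.001 drawn at 0.001. Ccl11, Cxcl17 and Ackr1 lie over 40 times above the highest other library at the top, and Cx3cl1 and Ccl28 lie below all others at the bottom.

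Markers of other organs were high in the same library. Those of heart muscle summed to 1864 TPM, against at most 1.81 in the other female libraries, airway and alveolar markers to 974 against at most 0.412, and adipocyte markers to 1184 against at most 20.7. Macrophage markers summed to 507 TPM, with Lyz2 at 427, and B and plasma cell markers to 201.9. Proximal tubule markers summed to 14.1 TPM, against at least 447.1 in the others, and thymocyte markers to 0.0448. The library is labelled kidney, while its defining kidney genes are nearly absent. Measured in females through it alone were 10 members, among them Ackr1, Ccl3, Ccl7, Ccl8, Ccl11, Ccl24, Ccr1, Cxcl13 and Cxcl17.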

How the data were processed

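Kidney RNA libraries of 16 mice were read from 2 tables, 1 per sex, of TPM values. Per the submitters' processing notes, the authors used Partek and build mm39; no source used here names the aligner, the annotation or the use of strand. In the deposited TPM values each gene's whole span is the length, each column sums to 285327 (males) or 265288 (females), and an offset of 0.0001 read per gene leaves 0 values at 0. Whole reads were estimated from that offset; 76.0% to 77.8% of low genes came out whole within 0.05 read. Depth was thus estimated at 21.5 to 31.7 M reads, and counting error limits members with few reads. Estimated reads were divided by the longest coding transcript of GENCODE M21 (56 of 56 members matched) to compare levels between genes.

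Groups came from the labels. Differences were tested within each sex with limma 3.58.1 (R 4.3.3; lmFit and eBayes with trend) on log2(TPM + 0.1), so that differences of low genes are understated, over genes whose average reached 0.2 TPM in either group, with Benjamini-Hochberg adjustment over all genes and a threshold of 0.05. The difference between the sexes was a contrast over 4 group means. The test was checked on simulated data. Alternatives were another pseudocount (1 or 0.02), a mean of at least 1 TPM or no filter, median-of-ratios scaling, limma-voom on estimated reads (group mean of at least 10), array weights, a replicate block, 1 model for all groups and leaving out each library; combinations of these with a library left out were chosen after seeing the data. The members and all gene lists were chosen with earlier results of these data known. Members got values per library if called, if among the 3 highest of their role, or if at least 5 times the highest other female library and at least 1 TPM in female Kl/Kl replicate 3; Ccl2, Ccl5, Ccl17, Ccl25, Cxcl1, Cxcl2, Cxcl10, Cxcl14, Ccr6, Ccr10, Cxcr2 and Ackr2 were added after their values were seen. Not every member is reported here by name. From each other list up to 3 called genes are named; Kap and Mzb1 were added after their values were seen. Promoter letters come from the RefSeq table of GRCm38.p6, which matched 43 of 56 members by symbol; motifs searched on both strands were the run shared by Cxcl1, Cxcl2 and Cxcl3 (GGGAATTTCCC), AGAACA (androgen receptor half-site) and TGAGTCA (AP-1).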

Additional observations from a re-analysis of the deposited data

Results flagged for a closer look

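Among 36 pairs of a gene and a group of 4 or 5 libraries, 12 had 1 library far from the others by Dixon's criterion. Of these 12, 11 were female Kl/Kl replicate 3. Chance alone gives this in about 1 of 20 pairs, but that rate cannot be set against these counts. Ackr1, Ccl11, Ccl6, Ccl8, Ccl9, Cxcl13 and Cxcl17 were examined because they were high in that library, so their outlying values followed from the choice. Ccr1 reached a mean of 0.2 TPM in female Kl/Kl through that library alone (0.476 TPM, and 0.125 without it). Its outlying value thus followed from the choice as well. In that library Ackr1 (2.27 TPM), Ccl11 (2.93), Ccl21a (14.9), Ccl6 (19.4), Ccl8 (10.7), Ccl9 (11.7), Ccr1 (1.53), Cxcl13 (1.70), Cxcl17 (1.31) and Cxcr4 (7.31) stood far above the other 3 Kl/Kl females, and Cxcl16 (2.96 TPM) far below them. Cx3cl1 in female control replicate 1, at 10.2 TPM, stood above the other 3 female controls at 5.04 to 5.62. The Kl/Kl change of Ccl28 differed between the sexes by 3.36 log2 units (limma over 4 groups, adjusted p = 0.0308).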

How the results depend on the processing

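The fall of Ccl28 in males passed the threshold in all 20 alternatives, with differences from -5.55 to -2.30 and adjusted p from 2.34e-06 to 0.0437. Over all named members, 976 values were compared: 955 kept their side of the threshold (70 of them with the other sign, neither value called), 5 gained a call, 16 lost one and 0 reversed. Members called in males, 1 in the main test, were 2 of 20 with median-of-ratios scaling (Ccl6 added, where 12% of all genes were called), 7 of 29 with voom (18.6%), 6 of 20 with array weights (30.1%) and 2 of 29 with voom without control replicate 3 (15.5%). Members called in females were 1 of 33 with array weights (Cxcl2, where 0.482% of all genes were called) and 0 otherwise. For the difference between the sexes, members called were 0 with a pseudocount of 0.02, a mean of at least 1 TPM, no filter or voom, and 0 to 1 on leaving out 1 library; Ccl28 then had 3.52 with a pseudocount of 0.02 (adjusted p = 0.241), 3.36 with a mean of at least 1 TPM (adjusted p = 0.109) or no filter (adjusted p = 0.0501), 3.77 with voom (adjusted p = 0.133) and 2.96 to 3.67 on leaving out 1 library.

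Of all genes, 964 were called in males: 501 with a mean of at least 1 TPM, 642 with no filter, 1871 with median-of-ratios scaling, 3507 with voom, 4674 with array weights, 2908 with voom without control replicate 3, and 369 to 1356 on leaving out 1 library (369 without control 2, 523 without control 1, and 465, 479, 540 and 575 without Kl/Kl 4, 1, 2 and 3). Median-of-ratios scaling moved the median log2 difference of all male genes from 0.28 to 0.04 and the share of higher calls from 61.8% to 44.8%; Ccl21a and Ccl27a, neither called, then changed sign in males. In females 0 genes were called (681 at an unadjusted p under 0.05): 3 with a pseudocount of 1, also without Kl/Kl replicate 3, 2 with a mean of at least 1 TPM, 8 with no filter, 1 with median-of-ratios scaling, 76 with array weights, 9 in the 4-group model, 37 with voom without replicate 3, and 0 to 3 on leaving out 1 library. Between the sexes 77 were called: 45 with a pseudocount of 0.02, 10 with a mean of at least 1 TPM, 121 with no filter, 1484 with array weights, 471 without both libraries, then 569 with voom and 575 with a pseudocount of 1, and 39 to 172 on leaving out 1 library. The cause of these moves was not tested.

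Same-numbered libraries did not deviate together (correlations of -0.10, 0.03 and -0.13 in males and 0.01, -0.05, -0.06 and 0.16 in females). A pairing by number was thus not seen, but so few libraries cannot exclude one. With a replicate block 270 male genes were called, 62 without control replicate 3, and 0 in females. Depth limits members with few reads: 18 of 56 had fewer than 10 estimated reads in every library but female Kl/Kl replicate 3.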
